A study of Homo sapiens with 12 samples.

Results

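The mitochondrial respiratory chain moves electrons from NADH and succinate to oxygen and uses the resulting proton gradient to make ATP. Complex I oxidizes NADH, complex II oxidizes succinate, complex III passes electrons from ubiquinol to cytochrome c, complex IV reduces oxygen, and ATP synthase turns the gradient into ATP. Most subunits are encoded in the nucleus and imported into the organelle, while a few hydrophobic core subunits are encoded by mitochondrial DNA. In melanoma cells the coactivator PGC-1α, encoded by PPARGC1A and itself a target of the melanocyte factor MITF, is known to drive this gene programme. The genes described here are the nuclear encoded subunits, taken by symbol alone as rows of the count table: NDUFA, NDUFB, NDUFC, NDUFS and NDUFV genes with a number for complex I, the SDH genes of complex II, 8 UQCR genes of complex III, 10 COX genes of complex IV and the ATP5 genes of ATP synthase. The rule found 75 genes of 56638 gene rows, 37 of them for complex I, 4 for complex II, 8 for complex III, 10 for complex IV and 16 for ATP synthase. It used no expression value. Of these, 74 passed the filter on low counts, among 16080 genes tested. The exception was ATP5L2, a near copy of the subunit g gene ATP5L, which had 2 counts over the 12 libraries.

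RNA came from 501Mel, an established human melanoma cell line with a mutated BRAF kinase, after 48 h in the vehicle DMSO, 1 µM Vemurafenib (Vem, a BRAF inhibitor), 5 µM Resveratrol (RSV, which the study uses as an antagonist of the Aryl hydrocarbon Receptor, AhR), 10 nM TCDD (a dioxin and canonical AhR agonist), RSV+Vem or RSV+TCDD. The treatment protocol gives 10 nM TCDD in the last group, whereas the label of its libraries gives 1 nM. Each of the 6 groups held 2 libraries of 1 cell line, and no label says whether these were separate cultures, so p-values measure only the spread between these libraries. The question of the comparisons is how these AhR ligands and their combinations changed the transcriptome.

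Counts on genes ranged from 8378655 in RSV+Vem 2 to 25076925 in DMSO 2. The RNA integrity number was 8.7 and 8.6 in the RSV+Vem libraries, the lowest of the series, and between 9.1 and 9.7 in all others. In comparisons with the RSV+Vem group, RNA integrity and treatment thus cannot be told apart. The melanocyte lineage markers MLANA, PMEL, TYR, DCT, MITF and SOX10 summed to between 9356 and 34823 CPM (counts scaled to the library's TMM-adjusted size) in every library, while the keratinocyte markers stayed at or below 0.112 CPM, the leukocyte markers at or below 1.31 CPM and the endothelial markers at or below 1.92 CPM. The 3 fibroblast markers summed to between 6.30 and 39.3 CPM, with the TCDD libraries highest. LUM made up most of that sum, at 38.2 and 30.8 CPM in TCDD and 13.9 and 11.2 CPM in DMSO. COL1A1 went the other way, at 0.903 and 0.588 CPM in TCDD and 1.52 and 1.46 CPM in DMSO. PDGFRB had 28 counts over the 12 libraries. Spike-in RNA (ERCC) took 0.0310% to 0.0936% of the counts and differed between replicates, most in RSV+Vem, where the subunit genes had 30.3 and 12.6 counts per spike-in count. In these bulk libraries a change in RNA per cell and a change in the kind of cells cannot be told apart.

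Some of these genes cannot be counted cleanly. More than 50% of the exonic bases of ATP5O, NDUFA11, NDUFA13, NDUFA7, NDUFB8, NDUFV2 and SDHA lie on the same strand as exons of another annotated gene, and counted pseudogene rows exceeded 1% of the gene's own counts for COX6A1, SDHA, UQCRFS1 and NDUFV2. Their values are given as uncertain. NDUFV2, a core subunit of the NADH-oxidizing module, is the extreme case: it had 204 counts in all 12 libraries, its pseudogene NDUFV2P1 had 292, and 90.0% of its exonic bases (GRCh37, chr18:9102628-9134343, plus strand) are shared with ENSG00000265257.

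Expressed as a share of all gene counts, the 75 genes took 1.05% and 1.04% in DMSO, 1.54% and 1.66% in Vem, 0.968% and 0.964% in RSV, 1.18% and 1.14% in RSV+Vem, 1.15% and 1.14% in TCDD, and 1.02% and 1.09% in RSV+TCDD. Their summed level was 10565 and 10569 CPM in the DMSO libraries and 17082 and 18661 CPM in the Vem libraries. With RSV it was 8976 and 9202 CPM, and with RSV+Vem 11055 and 10705 CPM. Vem libraries stood above all others, RSV libraries below all others, and RSV+Vem libraries close to DMSO. The TCDD libraries had 12129.9 and 12055 CPM and the RSV+TCDD libraries 9684 and 10475 CPM, the latter below both DMSO libraries. The sums of complexes I, III and IV and of ATP synthase were each highest in both Vem libraries and lowest in both RSV libraries, and in complex II RSV+TCDD 1 lay between the RSV libraries. The summed melanocyte markers had the same extremes, from 9356 to 10134 CPM in RSV and from 32655 to 34823 CPM in Vem. PMEL and DCT made up most of that sum and were highest in Vem, as were MITF and SOX10. TYR was highest in TCDD (1445.5 and 1420 CPM, against 1204 and 1274 CPM in Vem), and MLANA overlapped between TCDD and Vem. The RSV libraries were not the lowest apart from all others for MLANA and MITF. The part of these markers, and of the state they mark, in the values of the subunit genes was not tested.

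**Figure D1:**
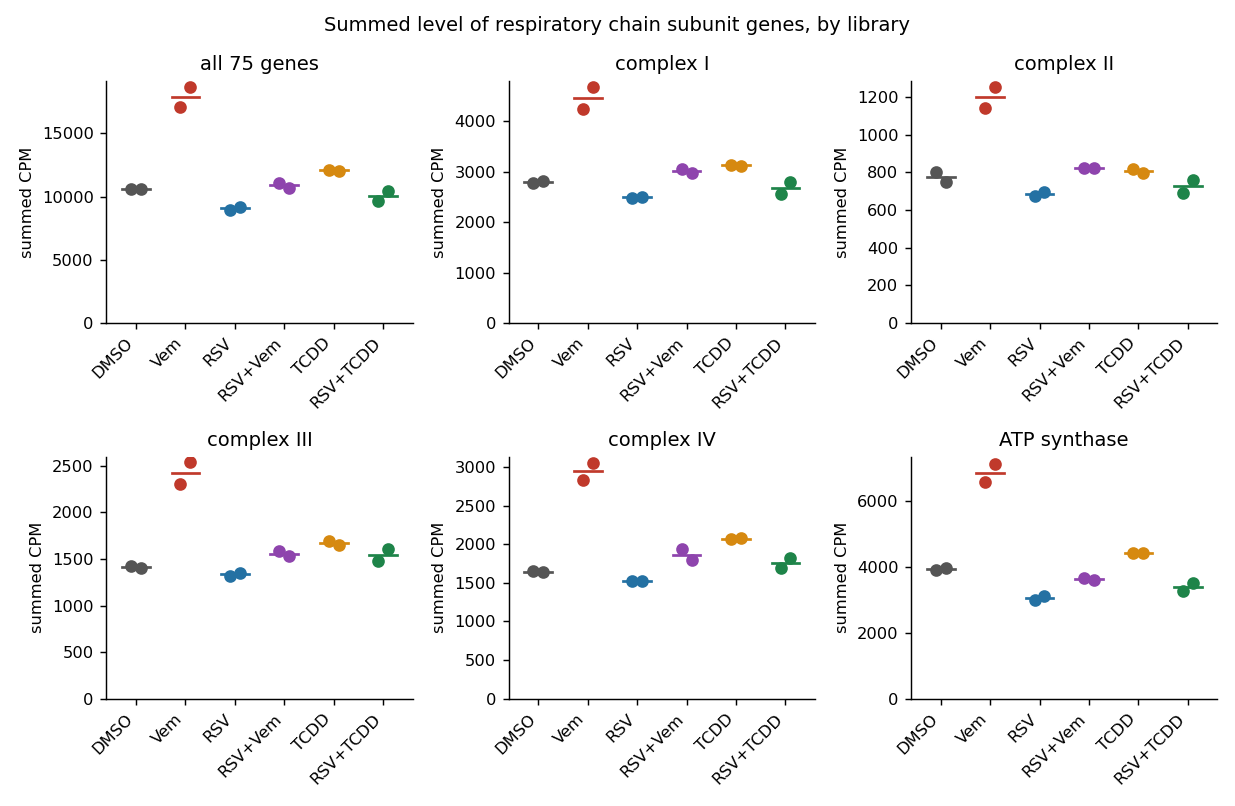
Summed CPM of the respiratory chain subunit genes in each of the 12 libraries, for all 75 genes and by complex. Points are libraries and the bar is the mean of the 2 libraries of a group. The Vem libraries lie highest in every panel, and the RSV libraries lowest in every panel but that of complex II, where RSV+TCDD 1 lies between them.

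Vem raised the nuclear encoded subunits of all 5 complexes. Of the 74 tested genes, 66 were higher and 1 was lower with Vem than with DMSO by the quasi-likelihood F test of edgeR (Benjamini-Hochberg adjusted p under 0.05), against 25.4% of all tested genes called higher, 27% called lower and 52.4% called in either direction. The median log2 fold change was 0.65 over the subunit genes (quartiles 0.47 and 0.89) and −0.03 over all genes. All 15 tested ATP synthase genes, all 10 genes of complex IV and all 8 of complex III rose, as did 3 of 4 in complex II and 30 of 37 in complex I. Median changes were 0.88 for complex III, 0.79 for complex IV, 0.66 for complex II, 0.58 for ATP synthase and 0.55 for complex I. When libraries were scaled to the spike-ins instead, the median of all genes was −0.68 and that of the subunit genes −0.01, no subunit gene was called higher and 1 lower: the rise is a rise relative to the other transcripts. Leaving out each library in turn gave between 60 and 68 called genes.

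Complex I has a catalytic core that is conserved in bacteria and a shell of accessory subunits that assemble and stabilize it. Of the 7 nuclear core genes, 6 rose, with examples at 0.99 for NDUFV1, which carries the NADH and flavin sites, and 0.77 for NDUFS1, the largest iron-sulfur subunit. NDUFS1 had 263 and 275 CPM in DMSO and 444 and 472 CPM in Vem. NDUFV2 was the one core gene that fell, from 1.62 and 1.01 CPM to 0.209 and 0.307 CPM (log2 fold change −2.31 ± 0.50, edgeR adjusted p = 0.00096), at the counts described above. Among the 30 accessory genes 24 rose and none fell. The highest was NDUFA8, a cysteine-rich subunit facing the intermembrane space (GRCh37, chr9:124906337-124922058, minus strand), at 61.3 and 61.7 CPM in DMSO and 127 and 146 CPM in Vem, a change of 1.15 ± 0.10 (edgeR adjusted p = 6.09e-08). Both Vem libraries were above 2 times either DMSO library. NDUFB7 (1.12) and NDUFA3 (1.09) came next. The 6 complex I genes that did not pass the test were all accessory: NDUFA11, NDUFA5, NDUFB6, NDUFC1, NDUFC2 and NDUFS5, with values from −0.35 for NDUFC2 to 0.22 for NDUFS5, and NDUFC2 had the widest standard error of the complex after NDUFV2, 0.305.

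Complex II, succinate dehydrogenase, is also an enzyme of the tricarboxylic acid cycle and has no mitochondrially encoded subunit. The flavoprotein gene SDHA stood at 338 and 291 CPM in DMSO and 486 and 524 CPM in Vem, the iron-sulfur gene SDHB at 191 and 202 and 289.6 and 323 CPM, and the membrane anchor gene SDHC at 140.3 and 138 and 213 and 236 CPM. Their log2 fold changes lay close together, 0.68 ± 0.09, 0.64 ± 0.09 and 0.69 ± 0.10, and each pair of Vem libraries was above both DMSO libraries. The other anchor, SDHD, had 131 and 121 CPM in DMSO and 153 and 172 CPM in Vem, a difference of 0.37 ± 0.16 that missed the threshold (edgeR adjusted p = 0.0593), and passed it under 5 other fits (DESeq2, RLE factors, no filter, the replicate block and only the compared libraries).

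In complex III the strongest change was that of UQCRC1, a core protein on the matrix side (GRCh37, chr3:48636435-48648409, minus strand). It had 241 and 242 CPM in DMSO and 492 and 543 CPM in Vem (log2 fold change 1.10 ± 0.08, edgeR adjusted p = 1.81e-08). UQCRH, the hinge protein beside cytochrome c1, changed least, from 338 and 338 to 409.7 and 457 CPM (0.36 ± 0.10, edgeR adjusted p = 0.00493), a call that was lost without Vem 2. The Rieske iron-sulfur gene UQCRFS1 rose by 0.64.

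COX5B, a structural subunit of complex IV on the matrix side (GRCh37, chr2:98262525-98264846, plus strand), had the largest rise of the subunit genes. Its level was 149 and 150.0 CPM in the DMSO libraries and 354 and 408 CPM in the Vem libraries, a log2 fold change of 1.35 ± 0.12 (edgeR adjusted p = 8.36e-08). COX6B1, which links the monomers of the dimeric enzyme on its outer face, came next within complex IV with 123 and 121 and 255 and 284 CPM (1.14 ± 0.09). COX7B had the smallest change of the complex, 0.55 ± 0.09. 

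For ATP synthase, ATP5B, the catalytic β subunit, rose most and ATP5G2 least. ATP5B (GRCh37, chr12:57031959-57039768, minus strand) was at 1242 and 1273 CPM in DMSO and 2527 and 2636 CPM in Vem, a log2 fold change of 1.04 ± 0.08 (edgeR adjusted p = 1.46e-08), the lowest adjusted p of the subunit genes. The ring that turns in the membrane is built of subunit c, which 3 genes encode as the same mature protein. ATP5G3 went from 216 and 217 to 383 and 426 CPM (0.90 ± 0.10), ATP5G1 from 74.9 and 83.9 to 109 and 121 CPM (0.53 ± 0.10), and ATP5G2 from 222 and 219 to 265 and 297 CPM (0.35 ± 0.08). All 3 were called higher, and the Vem libraries lay above the DMSO libraries for each. With spike-in scaling the direction turned for ATP5G1 (−0.12) and ATP5G2 (−0.30).

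**Figure D2:**
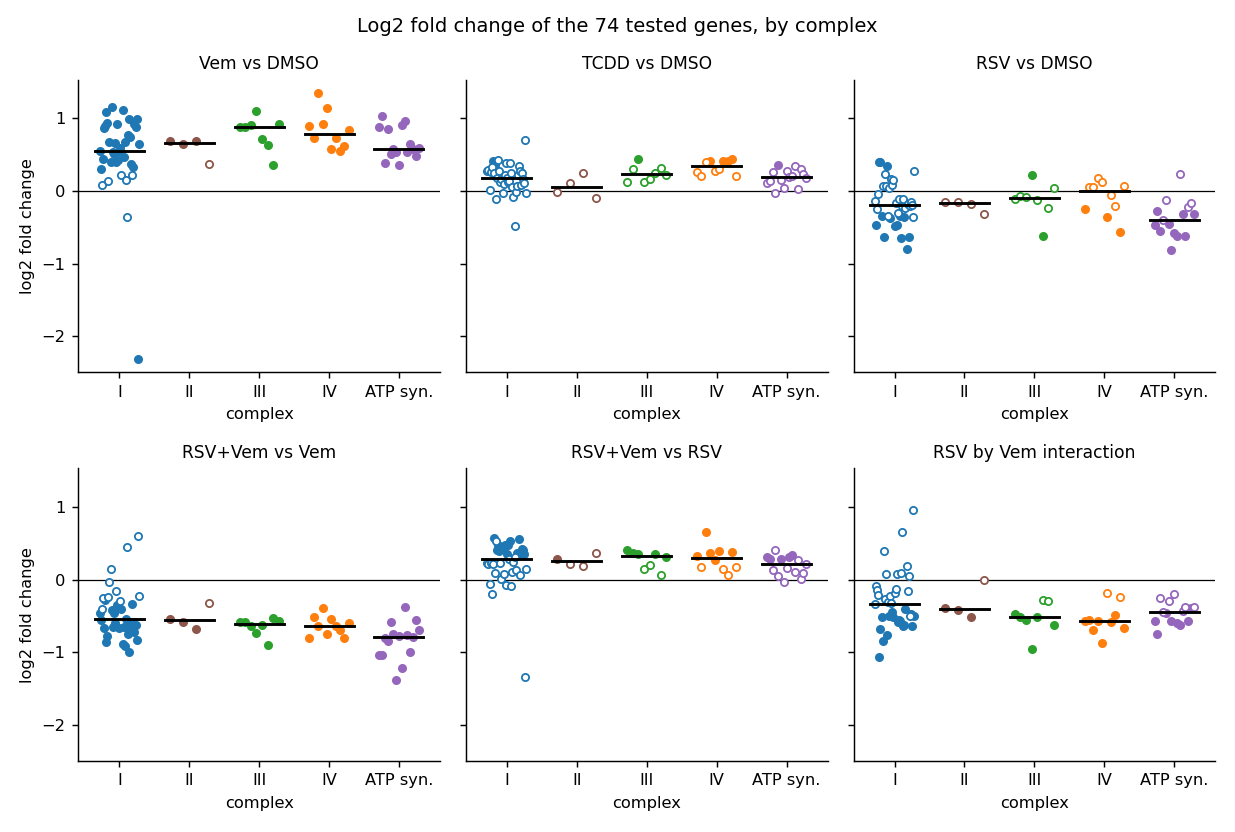
Log2 fold change (vertical axis) of the 74 tested genes by complex (horizontal axis) in 5 comparisons and in the difference of the RSV effect with and without Vem. Filled points passed edgeR's test and open points did not, and the bar is the median of a complex. With Vem all medians lie between 0.55 and 0.88, with RSV the ATP synthase median is lowest (−0.40), and with Vem NDUFV2 is the low point in complex I (−2.31).

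The sequences just upstream of 4 of these genes are shown. The picks were the highest gene of each complex with Vem and the lowest ATP synthase gene with RSV, which is ATP5G1. SDHC and ATP5B, the highest of complex II and of ATP synthase, had no matched promoter and are left out. A difference between ATP5G1 and the other 3 under RSV thus follows from the picking. RefSeq promoters (GRCh38.p14, 250 bases before to 50 after the start, gene strand) were matched for 61 of the 75 genes. Those not matched included ATP5B, ATP5D, ATP5G3, ATP5J2, ATP5L2, COX6C, NDUFA4, NDUFB5, NDUFB9, NDUFC2, NDUFS5, SDHC and UQCRB. Capitals mark exact matches on either strand to GCGCATGC (an NRF1 element), CCGGAAGT (an ETS element, bound by GABP), AAGATGGCG (YY1), AAGGTCA (the core of the estrogen-related receptor element), CACGTG (an E-box, bound by MITF) and GCGTG (the core of the AhR element, XRE), which may overlap each other. The windows are COX5B at chr2:97645812-97646111 (plus strand), NDUFA8 at chr9:122159730-122160029 (minus), UQCRC1 at chr3:48609597-48609896 (minus) and ATP5G1 at chr17:48892537-48892836 (plus).
COX5B: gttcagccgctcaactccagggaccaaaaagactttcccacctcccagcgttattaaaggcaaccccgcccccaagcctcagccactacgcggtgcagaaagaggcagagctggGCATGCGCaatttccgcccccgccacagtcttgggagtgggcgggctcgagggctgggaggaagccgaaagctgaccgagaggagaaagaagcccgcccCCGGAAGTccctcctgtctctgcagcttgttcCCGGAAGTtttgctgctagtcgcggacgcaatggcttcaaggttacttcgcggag
NDUFA8: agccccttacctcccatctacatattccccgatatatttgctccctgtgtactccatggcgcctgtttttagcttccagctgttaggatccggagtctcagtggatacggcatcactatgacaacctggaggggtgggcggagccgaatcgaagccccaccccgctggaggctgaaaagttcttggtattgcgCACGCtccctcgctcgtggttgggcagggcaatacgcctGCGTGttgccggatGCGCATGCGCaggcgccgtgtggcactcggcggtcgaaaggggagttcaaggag
UQCRC1: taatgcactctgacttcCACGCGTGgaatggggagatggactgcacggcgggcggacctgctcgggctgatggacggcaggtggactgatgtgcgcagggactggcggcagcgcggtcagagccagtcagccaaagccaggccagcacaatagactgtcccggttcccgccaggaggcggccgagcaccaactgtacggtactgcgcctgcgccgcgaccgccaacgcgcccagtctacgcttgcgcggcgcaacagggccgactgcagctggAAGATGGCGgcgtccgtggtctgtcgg
ATP5G1: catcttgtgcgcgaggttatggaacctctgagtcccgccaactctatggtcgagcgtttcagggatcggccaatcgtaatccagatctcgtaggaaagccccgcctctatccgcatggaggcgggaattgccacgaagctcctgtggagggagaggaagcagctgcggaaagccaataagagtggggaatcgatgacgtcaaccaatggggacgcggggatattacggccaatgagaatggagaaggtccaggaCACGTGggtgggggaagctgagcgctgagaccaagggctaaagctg
The COX5B window held an NRF1 element and 2 ETS elements, NDUFA8 overlapping NRF1 elements and 2 XRE cores, UQCRC1 a YY1 element and 2 overlapping XRE cores, and ATP5G1 an E-box. NRF1 elements were in 21.3% of the 61 promoters and 3.27% of all 27305 promoters of that length. The shares were 14.8% and 4.44% for ETS, 13.1% and 1.85% for YY1, 13.1% and 3.97% for the estrogen-related receptor element, 11.5% and 7.44% for the E-box, and 47.5% and 36.3% for the XRE core. Unlike the other backgrounds given here, the 27305 promoters were not limited to the 16080 tested genes. The shares over promoters of tested genes were not taken, so these values do not show what is particular to the subunit genes. Genes with an NRF1 element had a median log2 fold change with Vem of 0.64, the same to 2 decimals as those without one. With an ETS element the median was 0.87 over 9 genes and without one 0.61 over 52 genes. With an XRE core it was 0.68 over 29 genes and without one 0.55 over 32 genes. For the YY1 element the medians with and without were 0.65 and 0.64, for the estrogen-related receptor element 0.51 and 0.65, and for the E-box 0.54 and 0.65. With RSV the medians with and without the element were −0.32 and −0.15 for NRF1, 0.05 and −0.21 for ETS, −0.18 and −0.16 for YY1, −0.26 and −0.15 for the estrogen-related receptor element, −0.25 and −0.15 for the E-box, and −0.12 and −0.24 for the XRE core. These medians are descriptions over 7 to 29 genes with an element, and none was tested. A match is a run of letters and not a measured site.

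RSV alone lowered a part of the genes, and the share of genes lowered was highest in ATP synthase. Compared with DMSO, 25 were lower and 4 higher with RSV (29 of 74), at a background of 20.4% of all genes lower, 20.5% higher and 40.9% called. The median of the subunit genes was −0.20 (quartiles −0.36 and 0.02) and that of all genes 0.00. The share called was thus close to the background, and the directions were uneven. Among ATP synthase genes 10 of 15 were lower and none higher, with a median of −0.40. Of complex I, 11 of 37 were lower and 3 higher, of complex IV 3 of 10 were lower, and of complex III 1 of 8 was lower and 1 higher. None of the 4 SDH genes was called, with values from −0.32 for SDHD to −0.15 for SDHA. Scaled to the spike-ins no gene was called, the median of the subunit genes was −0.36 and that of all genes −0.17.

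All 3 subunit c genes were lower with RSV. ATP5G1 had 44.4 and 45.6 CPM in the RSV libraries, below both DMSO libraries, and the lowest log2 fold change of the tested subunit genes, −0.82 ± 0.11 (edgeR adjusted p = 2.58e-05). ATP5G3 was at 135 and 146 CPM (−0.62 ± 0.10) and ATP5G2 at 145 and 149.6 CPM (−0.58 ± 0.08). In the F1 head, ATP5B fell to 1023 and 1048 CPM (−0.28 ± 0.08), and ATP5C1, the central γ shaft, to 113 and 128 CPM (−0.55 ± 0.09). ATP5H, a subunit of the peripheral stalk, had 109.6 and 112 CPM in DMSO and 126 and 135 CPM in RSV (0.24 ± 0.09, edgeR adjusted p = 0.0547), the only positive value in ATP synthase, and did not pass the test.

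In complex I, NDUFS4, an accessory subunit of the NADH module whose loss causes Leigh syndrome, fell most with RSV, from 37.7 and 33.7 to 21.2 and 19.96 CPM (−0.80 ± 0.11, edgeR adjusted p = 4.27e-05). At the other end NDUFA13 (GRIM-19) had 7.74 and 7.69 CPM in DMSO and 11.5 and 9.04 CPM in RSV, a change of 0.41 ± 0.15 (edgeR adjusted p = 0.0394). That call is uncertain since 83.9% of the exonic bases are shared, and it was lost without either DMSO library, without RSV 1, under DESeq2, without a filter and with only the compared libraries. NDUFA2 (0.40 ± 0.10) and NDUFA8 (0.34 ± 0.10) also rose. COX7C, a small membrane subunit, was the lowest of complex IV, at 215 and 214 CPM in DMSO and 141 and 149 CPM in RSV (−0.56 ± 0.08). COX6A1 was the highest of that complex, at 0.17 ± 0.09, and was not called. UQCRFS1 fell from 78.6 and 80.0 to 52.1 and 51.1 CPM (−0.62 ± 0.09) while UQCRC1, of the same complex, had 241 and 242 CPM in DMSO and 293 and 273 in RSV (0.23 ± 0.08, edgeR adjusted p = 0.0366). The UQCRC1 call was lost without either DMSO library, without RSV 1, without a filter and with only the compared libraries.

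When RSV was given with Vem, the subunit genes were lower than with Vem alone across all 5 complexes. Of 74 genes, 63 were lower and none higher in RSV+Vem than in Vem, at a background of 18.7% lower, 19.2% higher and 37.9% called. The median was −0.61 (quartiles −0.76 and −0.43) against 0.03 for all genes. All 15 ATP synthase, 10 complex IV and 8 complex III genes were called, with 3 of 4 in complex II and 27 of 37 in complex I. Not called were SDHD and 10 genes of complex I, NDUFA11, NDUFA12, NDUFA5, NDUFA6, NDUFA7, NDUFB11, NDUFB5, NDUFC2, NDUFV2 and NDUFV3. ATP5G1 fell most, to 45.9 and 41.9 CPM in RSV+Vem (−1.38 ± 0.11, edgeR adjusted p = 1.78e-07), the level of the RSV libraries. ATP5G3 was at 182 and 166 CPM (−1.21 ± 0.10), ATP5A1, the α subunit, changed by −1.04 ± 0.08, and ATP5B, at 1274 and 1254 CPM, by −1.03 ± 0.08. ATP5B in the RSV+Vem libraries was thus close to its DMSO libraries. With spike-in scaling no gene was called, the median was −0.64 and that of all genes −0.02.

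Relative to DMSO, RSV+Vem left 18 genes higher and 11 lower, with backgrounds of 24.1% and 24.8% (48.9% called) and a median of 0.06. NDUFA8 (0.74 ± 0.10) and COX5B (0.71 ± 0.11) were among those higher, and ATP5G1 (−0.85 ± 0.11) and ATP5C1 (−0.41 ± 0.09) among those lower. Of the 18 that were higher, 1 was in ATP synthase, and of the 11 that were lower, 5 were. The total of 29 fell to 18 without RSV+Vem 1 and to 19 without DMSO 1. Spike-in scaling gave 4 lower and none higher.

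In the presence of RSV, adding Vem still raised the genes, by less. RSV+Vem against RSV had 33 genes higher and none lower (background 11.2% and 13.1%, 24.4% called), with a median of 0.28 against 0.00 for all genes. COX5B changed most, from 167 and 145 CPM in RSV to 272 and 217 CPM in RSV+Vem (0.65 ± 0.12, edgeR adjusted p = 0.00072), with its RSV+Vem libraries apart from each other. NDUFA3 (0.58 ± 0.12) and NDUFS4 (0.56 ± 0.11) followed. ATP5G1 did not pass the test and its interval around −0.03 ran from −0.27 to 0.20 (95%). The count rested on single libraries: 8 genes were called without RSV+Vem 1 and 19 without RSV 2, and with spike-in scaling none.

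**Figure D3:**
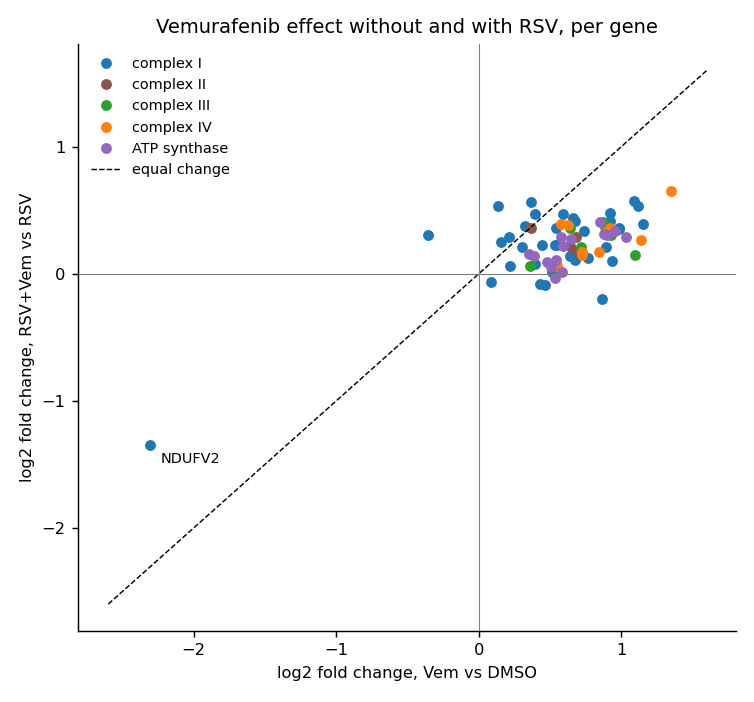
Log2 fold change of each of the 74 genes with Vem, without RSV (horizontal axis, Vem against DMSO) and with it (vertical axis, RSV+Vem against RSV), colored by complex. The dashed line marks equal change. 66 of the 74 genes lie below it.

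The effect of Vem without RSV and that with RSV come from separate libraries, so they can be set side by side. All 33 genes called higher with Vem in the presence of RSV were also called higher without it, 50% of the 66. Since 66 of the 74 tested genes were called higher without RSV, most of any 33 of them would be shared. The overlap of calls over all genes was not counted. For 66 of 74 genes the change was larger without RSV. Over the 74 genes, Pearson's r between the 2 changes was 0.70 and Spearman's rho 0.37, and r dropped to 0.31 over 73 genes once NDUFV2 was left out. Over all 16080 genes r was 0.62 and rho 0.59. Genes of one library share its depth and composition and do not replicate each other.

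The difference itself was tested as the interaction on the log2 scale, which is the RSV effect in the presence of Vem minus the RSV effect in its absence. It was below 0 and passed the test for 42 of 74 genes, and for none above 0, at a background of 10.7% lower, 12% higher and 22.7% called. The median was −0.46 (quartiles −0.57 and −0.24) and that of all genes 0.02. By complex it was called for 17 of 37 genes of complex I, 3 of 4 of complex II, 6 of 8 of complex III, 8 of 10 of complex IV and 8 of 15 of ATP synthase. UQCRC1 had the lowest adjusted p. Its levels were 241 and 242 CPM in DMSO, 492 and 543 in Vem, 293 and 273 in RSV and 315 and 310.0 in RSV+Vem, an interaction of −0.95 ± 0.12 (edgeR adjusted p = 3.77e-05). RSV was thus above DMSO without Vem, and RSV+Vem below Vem. COX6B1 showed the same order at 134 and 132 CPM in RSV and 164 and 157 in RSV+Vem (−0.87 ± 0.12, edgeR adjusted p = 0.00012). ATP5B followed with −0.75 ± 0.11. NDUFA4, now counted as a subunit of complex IV although its symbol matches complex I, had 135 and 135 CPM in DMSO, 252 and 265 in Vem, 133 and 149 in RSV and 158 and 142 in RSV+Vem (−0.84 ± 0.14). NDUFA8 (−0.76 ± 0.14) and NDUFS1 (−0.64 ± 0.12) completed the first 6 by p. Where RSV alone had already lowered a gene, the interaction could be small: NDUFS4 had 0.19 ± 0.16 and NDUFS6, which also belongs to the NADH module, 0.05 ± 0.14, neither called. The count was 22 without Vem 2 and 25 without RSV+Vem 2. Spike-in scaling called none, with a median of −0.32 against 0.15 for all genes, and all 6 named values kept their sign.

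**Figure D4:**
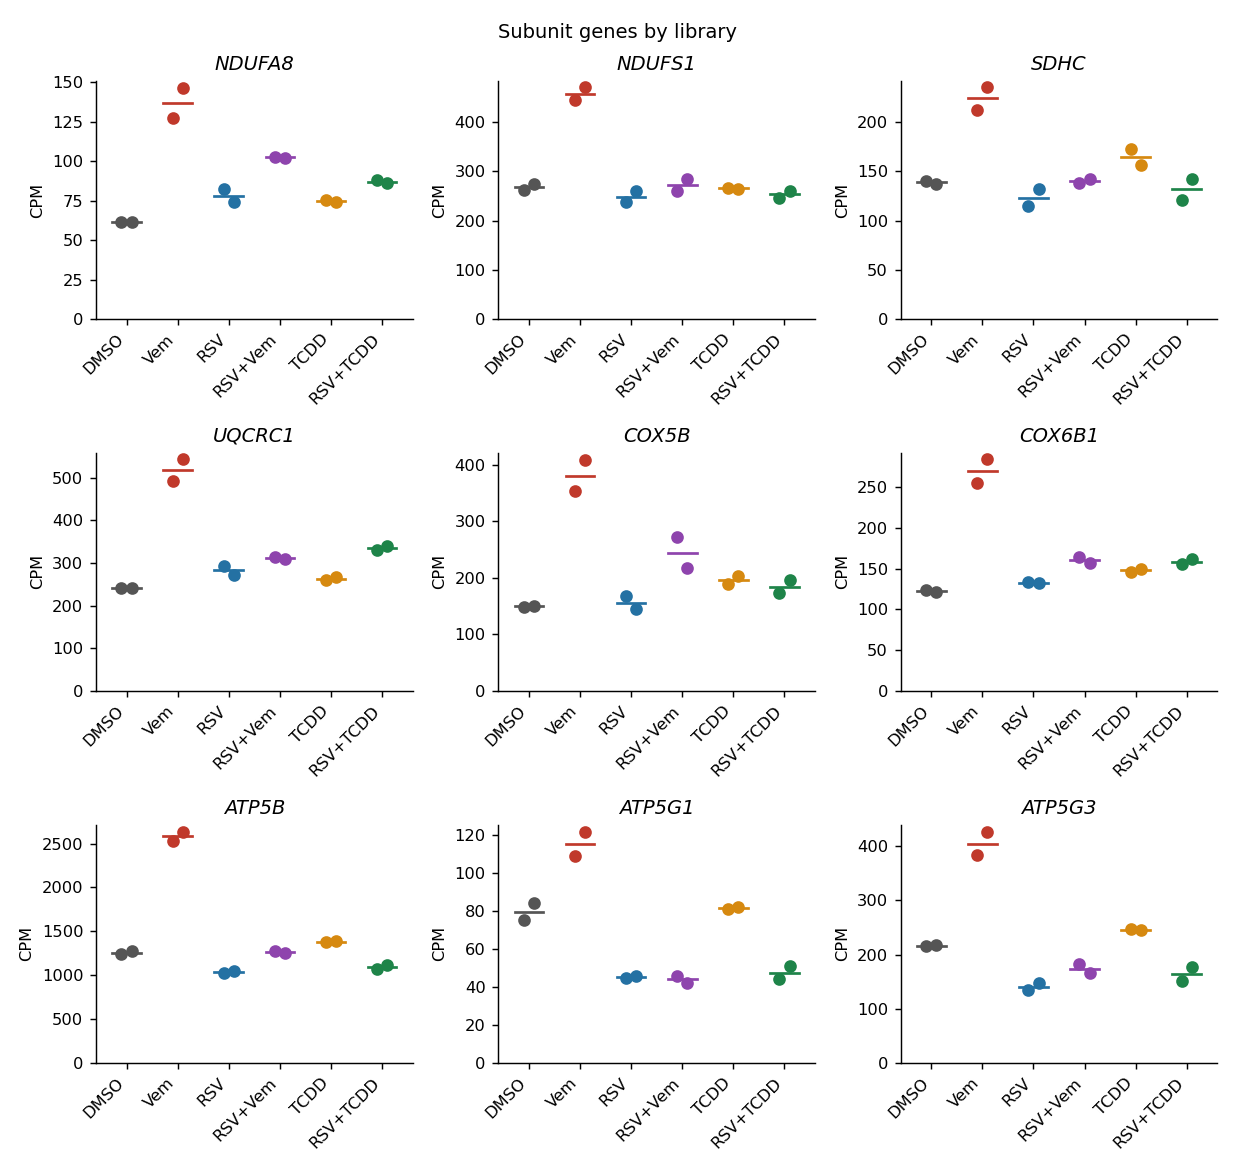
CPM of 9 subunit genes in each library, by group. Points are libraries and the bar is the mean of the 2 libraries of a group. ATP5B in RSV+Vem (1274 and 1254 CPM) lies close to its DMSO level, whereas ATP5G1 in RSV+Vem lies close to its RSV level.

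TCDD changed few of the subunit genes, and those it changed rose. With TCDD, 8 of 74 were higher than with DMSO and none lower, at a background of 4.5% higher, 1.9% lower and 6.41% called. The median was 0.22 (quartiles 0.12 and 0.30) against 0.00 for all genes, and 65 of 74 values were above 0. Of the 8, 4 were in complex IV. COX7C had 215 and 214 CPM in DMSO and 298 and 283 CPM in TCDD (0.44 ± 0.08, edgeR adjusted p = 0.00483), and COX7A2, another small membrane subunit, 170.0 and 171 and 232 and 223 CPM (0.42 ± 0.08). COX7B (0.41 ± 0.09) and COX6A1 (0.41 ± 0.09) had near equal changes. In each the TCDD libraries were above both DMSO libraries. UQCRB, which lies near the ubiquinone site of complex III, was at 163 and 144 CPM in DMSO and 216 and 199 CPM in TCDD (0.44 ± 0.10). NDUFA2 (0.41 ± 0.10), NDUFA4 (0.36 ± 0.10) and ATP5E, the ε subunit (0.36 ± 0.09), completed the 8. Each call rested on single libraries: 5 were left without DMSO 1 and 5 without DMSO 2, 2 without TCDD 2 and none without TCDD 1. Without TCDD 1 the values of the 6 named genes were still between 0.38 and 0.42. DESeq2 called 12 genes, the fit without a filter 13, and an unadjusted p under 0.05 was reached by 38. With spike-in scaling all of these 6 turned below 0, from −0.09 to −0.07, while the median of all genes was −0.51.

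Compared with TCDD, 51 genes were called higher and 1 lower with Vem (background 24.1% higher, 26.5% lower, 50.7% called). The median was 0.48, and 71 of 74 values were above 0. ATP5G2 was at 259.8 and 273 CPM in TCDD against 265 and 297 CPM in Vem and was among the 22 not called, as were COX7B and COX7C. COX5B, at 189.5 and 203 CPM in TCDD, differed by 0.96 ± 0.11. The lower gene was NDUFV2.

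With RSV+TCDD the direction was that of RSV. Compared with TCDD, 37 genes were lower and 1 higher (background 19.1%, 18.6% and 37.7% called), with a median of −0.28. The one that was higher was UQCRC1, at 259 and 266 CPM in TCDD and 331 and 341 CPM in RSV+TCDD (0.36 ± 0.08). Of the 37, 16 were in complex I and 13 in ATP synthase, where they were 13 of the 15 tested genes, among them ATP5G1 at 81.1 and 81.8 and 43.9 and 50.8 CPM (−0.78 ± 0.11). The libraries of this comparison are separate from those of RSV against DMSO, and 24 of the 25 genes lower there (96%) were among the 37 lower here (64.9%). Of all 74 tested genes 37 were lower here, and the overlap of calls over all genes was not counted. The change of each gene in 1 of these 2 comparisons had a Spearman rho of 0.86 with that in the other over the 74 genes. Over all genes rho was 0.79. Without RSV+TCDD 1 the count was 23, and the spike-in scaling gave 15 lower and none higher. Against RSV alone, RSV+TCDD was higher for 4 genes, ATP5G2 (0.45 ± 0.08), COX7C (0.45 ± 0.08), NDUFS4 (0.39 ± 0.11) and UQCRB (0.37 ± 0.10), and lower for none (background 3.61%, 2.08% and 5.7% called). Here 2 genes were called without RSV 2, 2 without RSV+TCDD 1 and none without RSV+TCDD 2, and the spike-in scaling turned the call to 13 lower. The RSV effect did not differ detectably between TCDD and DMSO: the interaction called none of 74 by edgeR or DESeq2 (background 0.124% called, 0.00622% higher and 0.118% lower), with 6 at an unadjusted p under 0.05 and a median of −0.06.

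The 13 subunits encoded by mitochondrial DNA were followed for comparison. Vem raised 12 of 13 (92.3%, against 25.4% of all genes), with a median of 0.82, and RSV+Vem was lower than Vem for 11 (84.6%, against 18.7%). RSV raised 3 and lowered none, and 3 of 13 (23.1%) is close to the 20.5% of all genes called higher. MT-CO1, the catalytic subunit of complex IV, had 13147 and 14845 CPM in DMSO, 33856 and 29229 in Vem, 19061 and 21019 in RSV and 23947 and 22622 in RSV+Vem. Its RSV change was 0.52 ± 0.10, upward, where the nuclear encoded COX4I1, the subunit beside it, had −0.24 ± 0.08. This pair does not stand for the 2 sets. With RSV the 10 nuclear encoded complex IV genes had a median of −0.004, with 5 values above and 5 below 0. The 13 mitochondrially encoded genes had a median of −0.04, with 6 above and 7 below 0. For ATP synthase the mitochondrially encoded MT-ATP6 had a value of −0.10 ± 0.15 with RSV that did not pass the test. The one gene not raised by Vem was MT-ND6, read from the other strand of the mitochondrial DNA, at −0.38 ± 0.19, which did not pass the test. Its replicates differed, with 191 and 226 CPM in DMSO and 194 and 127 CPM in Vem. The interaction was called below 0 for 8 of the 13 (61.5%, against 10.7% of all genes) and above 0 for none.

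Neighboring genes of the pathway were taken from lists. Of 13 tricarboxylic acid cycle genes 12 were higher with Vem, among them OGDH (1.63 ± 0.09), and all 13 were lower in RSV+Vem than in Vem, where 25.4% and 18.7% of all genes were called in these directions. Of 14 genes for ubiquinone synthesis and electron carriers, Vem raised 8 and lowered 2 (71.4% called, against 52.4% of all genes). CYC1, the cytochrome c1 of complex III, rose with Vem (0.81 ± 0.11), whereas CYCS, cytochrome c itself, had 357 and 330.4 CPM in DMSO, 348 and 379.8 in Vem and 162 and 208 in RSV and was called with RSV (−0.89 ± 0.20) but not with Vem (0.08 ± 0.20). Of 43 assembly factors tested, 17 were higher and 7 lower with Vem (median 0.23), and 16 were lower and 1 higher with RSV. The shares called, 55.8% and 39.5%, are close to those of all genes, 52.4% and 40.9%, but the directions were uneven. Of all genes 25.4% were higher and 27% lower with Vem, and 20.4% lower and 20.5% higher with RSV. SCO2, a copper chaperone of complex IV, rose most (1.08 ± 0.16) and TMEM126B, which builds the membrane arm of complex I, fell most (−0.95 ± 0.19). Of 7 tested isoforms and related genes, 4 were higher and 1 lower with Vem, and 1 was higher and 3 lower with RSV. The shares called were 71.4% and 57.1%, against 52.4% and 40.9% of all genes. NDUFAB1, the acyl carrier protein in complex I, rose with Vem (0.49 ± 0.11) and fell with RSV (−0.52 ± 0.11). ATPIF1 went the other way with RSV, from 63.7 and 65.0 CPM in DMSO to 92.2 and 90.0 CPM.

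Of the 12 regulators of mitochondrial biogenesis, 2 were higher and 5 lower with Vem, and the 58.3% called is close to the 52.4% of all genes. Their median was −0.34, where that of the subunit genes was 0.65. PPARGC1A (PGC-1α) had 481 and 356 CPM in DMSO, 664 and 638 in Vem, 156 and 213 in RSV and 316 and 377 in RSV+Vem. It rose with Vem (0.64 ± 0.14) and fell with RSV (−1.18 ± 0.15), and its interaction was not called (0.27 ± 0.20, edgeR adjusted p = 0.371). ESRRA, the estrogen-related receptor that PGC-1α coactivates, had 56.9 and 61.7 CPM in DMSO, 142 and 154 in Vem, 67.5 and 57.8 in RSV and 85.0 and 78.8 in RSV+Vem. Its interaction was called below 0 (−0.93 ± 0.15, edgeR adjusted p = 0.000347), as for 42 subunit genes. The 12 regulators as a list went the other way. For 3 the interaction was called above 0 and for 1, ESRRA, below 0 (33.3% called, against 22.7% of all genes). Their median interaction was 0.37, with 9 values above 0, where that of the subunit genes was −0.46. TFAM, which packages and transcribes mitochondrial DNA, fell with Vem, from 117 and 129 to 62.2 and 68.0 CPM (−0.92 ± 0.16), and PPARGC1B (PGC-1β) fell from 22.3 and 26.4 to 7.65 and 6.92 CPM (−1.74 ± 0.18). NRF1 (−0.65 ± 0.13) and GABPA (−0.63 ± 0.16) were lower with RSV and not called with Vem. Their elements, NRF1 and ETS, were in 21.3% and 14.8% of the 61 promoters above. With RSV the median of genes with an NRF1 element was −0.32 (−0.15 without) and with an ETS element 0.05 (−0.21 without). The part of these 2 regulators in the values of the subunit genes was not tested. RSV lowered 8 of the 12, against 20.4% of all genes, and raised none, and with TCDD their log2 fold changes ran from −0.40 to 0.32.

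**Figure D5:**
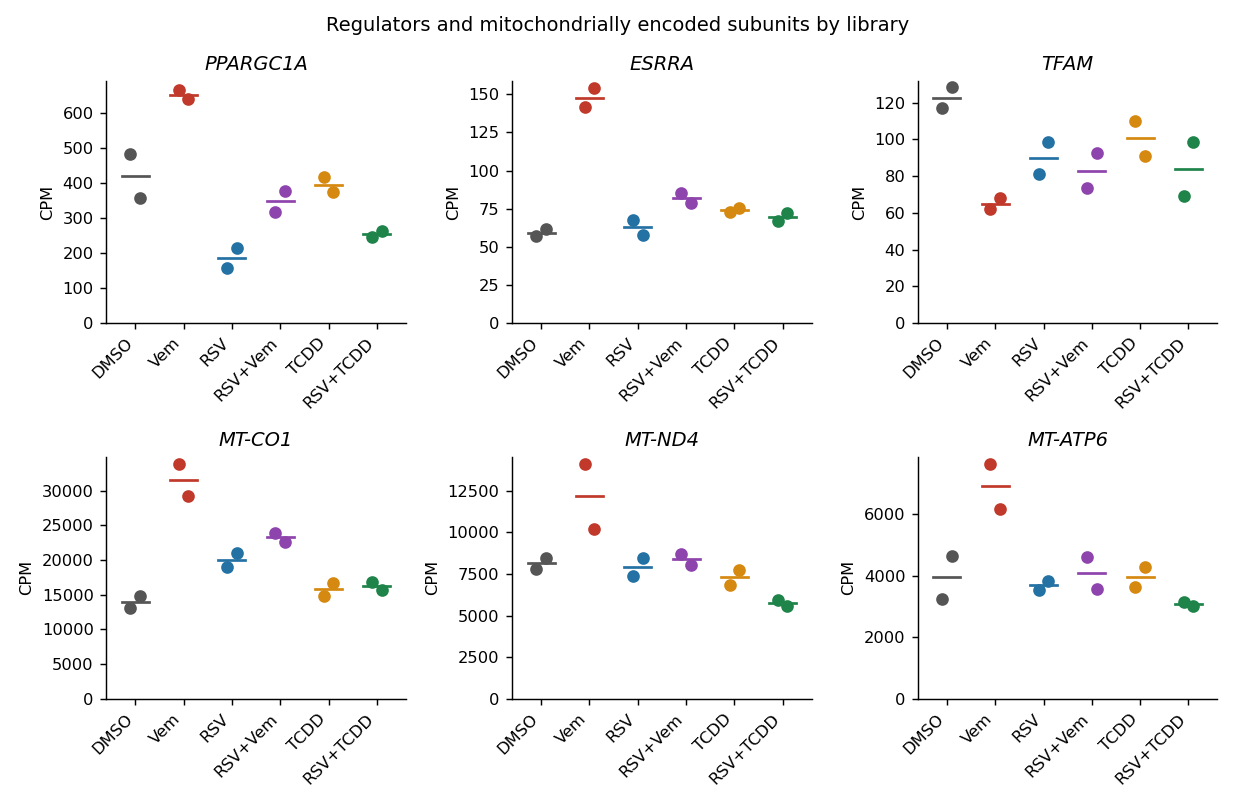
CPM of 3 regulators (top row) and 3 mitochondrially encoded subunits (bottom row) in each library, by group. Points are libraries and the bar is the mean of the 2 libraries of a group. ESRRA is highest in the Vem libraries (142 and 154 CPM) and TFAM lowest there (62.2 and 68.0 CPM).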

How the data were processed

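RNA from 501Mel cells was sequenced by the study as stranded mRNA libraries (read pairs, 2 libraries in each of 6 groups). The authors aligned reads with STAR 2.4.0a to hg19 and assigned them to gene symbols with featureCounts (Subread 1.5.0-p3). The deposited values are raw counts, with 96 control rows (92 ERCC) that were kept out of library sizes and tests. The annotation release is not given in the sources used here, so genes were placed with a GENCODE annotation on GRCh37, which matched all 75 genes by current or older symbol. Where a symbol names several genes, its row sums them.

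Counts were normalized with TMM, filtered with filterByExpr and tested with edgeR 4.0.16 (R 4.3.3, limma 3.58.1) by the quasi-likelihood test with 1 term for each of 6 groups over all 12 libraries (6 residual degrees of freedom), with Benjamini-Hochberg adjustment over 16080 genes and a threshold of 0.05. Values after ± are standard errors of the log2 fold change. CPM values are per library. Alternatives were DESeq2 1.42.0, RLE factors, spike-in scaling, 2 other filters, a replicate block, a fit on the compared libraries alone and leaving out each library. Tested on simulated counts for Vem against DMSO (15726 genes), edgeR called 69 of 98 changes of 1 on the log2 scale, 17 of 97 changes of 0.5 and 6 of 15531 unchanged genes. Depth limits what can be seen for NDUFV2 and ATP5L2, and intervals cover these libraries only.

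The genes, lists and comparisons were chosen with earlier results of these data known. Genes were named by a rule: the highest and lowest of each complex with Vem and with RSV, the SDH and subunit c genes, up to 6 genes called with TCDD, up to 6 with the lowest interaction p, and genes that failed the filter. Other genes are examples of groups and were chosen after their values were seen. Some genes that entered the fits and counts are not reported here by name.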

Additional observations from a re-analysis of the deposited data

Results flagged for a closer look

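The RSV effect differed between Vem and DMSO for 42 of the 74 tested subunit genes by the test of the difference itself, the edgeR interaction with Benjamini-Hochberg adjustment at 0.05, and all 42 differences were below 0, against 22.7% of all genes called. The values below are differences of log2 fold changes. In complex I they included −1.07 for NDUFA13, −0.84 for NDUFA4, −0.76 for NDUFA8, −0.68 for NDUFA2, −0.64 for NDUFS1, −0.63 for NDUFV1, −0.58 for NDUFB7, −0.57 for NDUFB9, −0.55 for NDUFB8, −0.51 for NDUFA3, −0.51 for NDUFB3, −0.50 for NDUFV3, −0.50 for NDUFB1, −0.48 for NDUFS8, −0.44 for NDUFB2 and −0.41 for NDUFS3. Complex II had −0.51 for SDHC, −0.42 for SDHB and −0.39 for SDHA. For complex III the values were −0.95 for UQCRC1, −0.62 for UQCRQ, −0.55 for UQCRB, −0.52 for UQCR11, −0.51 for UQCRC2 and −0.47 for UQCR10. Among complex IV genes they were −0.87 for COX6B1, −0.70 for COX5B, −0.67 for COX8A, −0.58 for COX7A2, −0.57 for COX4I1, −0.56 for COX6A1, −0.56 for COX5A and −0.49 for COX7B. ATP synthase held −0.75 for ATP5B, −0.62 for ATP5H, −0.59 for ATP5G3, −0.57 for ATP5J2, −0.57 for ATP5A1, −0.57 for ATP5G1, −0.45 for ATP5E and −0.39 for ATP5L. NDUFA13 and NDUFB8 share over 50% of their exonic bases with another gene, as does SDHA, and COX6A1 and SDHA have counted pseudogenes. The melanocyte lineage markers summed to 13868 to 14528 CPM in DMSO, 32655 to 34823 CPM in Vem, 9356 to 10134 CPM in RSV and 14636 to 15306 CPM in RSV+Vem, and their part in these differences was not tested. Groups of 2 libraries were too small for a test of outlying libraries.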

How the results depend on the processing

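Counts of called subunit genes kept within 1.5 times of the reported count in all 11 comparisons under DESeq2, RLE factors and the stricter filter, and under the replicate block, and when the 9 genes that share exons or have counted pseudogenes were left out (an alternative chosen after seeing the data), where Vem against DMSO gave 59 of 65 and the interaction with Vem 38 of 65. Without a filter TCDD gave 13. With only the compared libraries fitted, RSV+TCDD against RSV gave 1. Under spike-in scaling the counts were 1 for Vem against DMSO, 0 for TCDD, 0 for RSV, 4 for RSV+Vem against DMSO, 0 against Vem and 0 against RSV, 15 for RSV+TCDD against TCDD and 13 against RSV, 1 for Vem against TCDD and 0 for the interaction with Vem. That scaling rests on 0.0310% to 0.0936% of the counts, and spike-in shares differed between replicates. It turned the sign of 12 named values. With Vem these were ATP5G1 −0.12, ATP5G2 −0.30, COX7B −0.10, SDHB −0.011, SDHD −0.28 and UQCRH −0.29. With TCDD they were COX6A1 −0.094, COX7A2 −0.089, COX7B −0.093, COX7C −0.067, NDUFA2 −0.093 and UQCRB −0.067. The cause was not tested.

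Leaving out 1 library gave 60 to 68 called genes for Vem against DMSO, 0 to 5 for TCDD, 22 to 28 for RSV, 18 to 22 for RSV+Vem against DMSO, 55 to 62 against Vem and 8 to 25 against RSV, 23 to 38 for RSV+TCDD against TCDD and 0 to 5 against RSV, 45 to 50 for Vem against TCDD and 22 to 37 for the interaction with Vem. The interaction with TCDD stayed at 0. Where this left 1 library in a group, that library was assumed to vary like the others. NDUFV2 has no value under the stricter filter (10 counts in every library).

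The replicate numbers were not taken to pair the libraries, since not every pair of groups had a correlation of same-numbered deviations above 0.1: of 15 pairs, 3 were above 0.1, which are the pairs among the RSV, RSV+Vem and RSV+TCDD groups (0.149, 0.155 and 0.117), and 1 was below −0.1. With the number as a block the counts were 68 for Vem against DMSO, 8 for TCDD, 30 for RSV, 63 for RSV+Vem against Vem, 35 against RSV and 42 for the interaction with Vem.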
